A study of Mus musculus with 3 samples.

Results

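The MS4A genes examined here are Ms4a1, Ms4a4b, Ms4a4c, Ms4a6b, Ms4a6c, Ms4a6d and Ms4a7. These 7 members were taken by exact symbol from the 31062 genes of the count matrix. The matrix holds 19 genes whose symbol starts with Ms4a, so 12 further family genes were measured beside the members, together with the related Tmem176a and Tmem176b. The members were followed across immune cell classes defined by marker genes that include none of them, and across 8 hashed samples.

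The data came from brains of female C57Bl/6 mice aged 2 to 3 months with metastases seeded by carotid injection of the mammary carcinoma line E0771. Some mice received antibodies against VISTA and PD-L1, both inhibitory immune checkpoints, every other day from day 3 after injection, and the others did not. Perfused brains were digested and enriched for immune cells on Percoll, and 8 samples were each stained with 35 antibodies and 1 hashing antibody, then run as 1 droplet capture (CITE-seq, 10x 3′ v3). The mRNA, antibody and hashing libraries of that capture share all 12908 barcodes. The sources used here do not tie a hashtag to a treatment, so all hashtag samples were kept apart and treated and untreated mice were not compared. Nothing in the sources says whether 2 hashtags can come from the same animal, and every p-value here therefore reflects the spread over hashtag samples alone. The labels give 1, 2 and 3 hemispheres per biological sample for the 3 libraries of the same capture, so the tissue behind a hashtag sample is not settled.

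After filters on genes and mitochondrial share, 12334 barcodes were kept, of which 9896 carried a single hashtag (100 to 2316 per hashtag sample), 1712 carried several and 726 carried none. Marker UMIs (unique molecule counts) placed 7941 of the single-hashtag barcodes in 19 classes and left 1955, or 19.8%, ungated. A class name below means only that a barcode passed that gate. Barcodes gated as carcinoma were the deepest, with a median of 84716 UMIs, against 9494.5 in monocytes, 11983 in macrophages, 7697 in microglia, 6157 in CD8 T cells and 4132 in NK cells.

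MS4A proteins are small proteins of the cell membrane that cross it several times. MS4A1 is CD20, the B cell surface protein that therapeutic antibodies such as rituximab bind. MS4A2 is the beta chain of the high-affinity IgE receptor of mast cells and basophils, and Ms4a4b is known from T and NK cells, where its protein associates with the costimulatory receptor GITR (gene Tnfrsf18). The Ms4a6 genes and Ms4a7 are known from monocytes and macrophages, and Ms4a7 is widely used to tell macrophages that entered or border the brain from resident microglia. In human genetics the MS4A cluster is linked to Alzheimer's disease and to levels of soluble TREM2, a receptor of microglia and macrophages.

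The members lie in 1 cluster on chromosome 19 (RefSeq, GRCm38.p6, the assembly that the build mm10 names). Ms4a1 spans chr19:11249679-11266149 and Ms4a7 spans chr19:11321039-11336146. Ms4a4c (chr19:11404717-11427246) is followed by Ms4a4b (chr19:11443558-11463549), Ms4a6c (chr19:11469353-11487182) and Ms4a6b (chr19:11518559-11530403). Ms4a6d lies at chr19:11586606-11604804. Neighbouring paralogs are therefore Ms4a4c with Ms4a4b and Ms4a6c with Ms4a6b, and the members of both pairs had different cell patterns in these data. The 250 bases before a RefSeq start of each of these 4 genes are shown, 5′ to 3′ on the plus strand. Whether these bases bear on the difference in cell pattern was not tested. Capitals mark the longest run that the paralogs of a pair share. The windows are chr19:11407411-11407660 for Ms4a4c, chr19:11443308-11443557 for Ms4a4b, chr19:11469118-11469367 for Ms4a6c and chr19:11518309-11518558 for Ms4a6b. The Ms4a4c window lies inside the gene's annotated span, and the Ms4a6c window reaches past the start of its span, since both genes have further starts.
Ms4a4c: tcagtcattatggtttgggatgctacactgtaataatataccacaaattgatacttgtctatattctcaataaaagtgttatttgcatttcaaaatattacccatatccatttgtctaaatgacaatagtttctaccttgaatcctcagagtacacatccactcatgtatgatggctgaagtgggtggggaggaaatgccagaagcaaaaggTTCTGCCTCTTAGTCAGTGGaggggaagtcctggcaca
Ms4a4b: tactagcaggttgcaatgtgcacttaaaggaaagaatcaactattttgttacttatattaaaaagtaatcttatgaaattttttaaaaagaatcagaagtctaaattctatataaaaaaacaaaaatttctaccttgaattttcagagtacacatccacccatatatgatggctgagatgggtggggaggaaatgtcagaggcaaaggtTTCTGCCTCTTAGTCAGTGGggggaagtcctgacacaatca
Ms4a6c: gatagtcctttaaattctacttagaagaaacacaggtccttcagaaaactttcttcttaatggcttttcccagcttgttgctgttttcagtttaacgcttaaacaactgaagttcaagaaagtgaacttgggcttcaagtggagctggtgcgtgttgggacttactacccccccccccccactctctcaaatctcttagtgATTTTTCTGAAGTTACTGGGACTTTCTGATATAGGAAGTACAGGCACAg
Ms4a6b: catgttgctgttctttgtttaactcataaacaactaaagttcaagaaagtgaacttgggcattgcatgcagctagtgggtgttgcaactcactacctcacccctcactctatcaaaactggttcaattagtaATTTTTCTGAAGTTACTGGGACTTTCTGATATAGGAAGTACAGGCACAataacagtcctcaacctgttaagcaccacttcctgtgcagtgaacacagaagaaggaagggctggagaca
The Ms4a4c and Ms4a4b windows were identical at 70.3% of 259 aligned columns and shared a run of 20 bases. The Ms4a6c and Ms4a6b windows were identical at 51.1% of their aligned columns, but shared a run of 48 bases. Neither run occurred in the promoter window of any other gene of the table, on either strand. No window of Ms4a1 or Ms4a6d was available, so these members were not searched for the runs or the motifs. Of the motifs searched on both strands, GAGGAA, a PU.1-type sequence found in 23.3% of 32851 promoter windows, lay in both Ms4a4c (-61 to -56, counted in bases from the start) and Ms4a4b (-64 to -59). CAGGAAGT, an ETS-type sequence found in 2.69% of windows, lay in Ms4a6b on the minus strand at -43 to -36 and in none of the other 3 printed windows. The RUNX-type sequence TGTGGTT (4.4% of windows), an interferon response element motif (2.98%) and a composite ETS-IRF motif (2.3%) matched none of the windows of Ms4a4b, Ms4a4c, Ms4a6b, Ms4a6c or Ms4a7. These matches describe letters only.

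Levels are given as CPM, the UMIs of a gene divided by the UMIs of all genes and scaled to 1e+06, summed over the cells of a class within 1 hashtag sample that held at least 20 such cells. They are read along a gene and not between genes, because 3′ counting captures each transcript with its own efficiency. The handling of reads that match several paralogs is not given in the sources, so the split between Ms4a4b and Ms4a4c and among Ms4a6b, Ms4a6c and Ms4a6d is uncertain to that extent. Myeloid cells were gated on a monocyte list (with Ly6c2, Chil3, Plac8 and Ccr2) and a macrophage list (with C1qa, Apoe, Adgre1 and Csf1r), and barcodes high in both were called intermediate myeloid. The cells form a range across these cuts: 128 of 292 macrophages had monocyte markers at 10 to 20 per 10000 UMIs, just under the limit of 20, and 292 of 528 monocytes had macrophage markers at 25 to 50, just under the limit of 50. Carcinoma-gated barcodes, which should lack these genes, carried the 6 members other than Ms4a1 at medians from 0.836 CPM (Ms4a4b) to 2.17 CPM (Ms4a4c). These barcodes were far deeper and were gated to hold macrophage and monocyte markers below 3 per 10000 UMIs. Their values are therefore not taken as the background of shallower classes, and the part of free RNA in the droplet was not tested. Endothelial cells, with a median of 7259 UMIs, are closer in depth and had medians of 0.856 CPM for Ms4a4b, 1.87 CPM for Ms4a7, 5.93 CPM for Ms4a4c and 6.01 CPM for Ms4a6b. The free RNA in T, NK or microglia droplets was not measured, so low levels in those classes are given as values and not as expression.

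Ms4a7 separated macrophages from every other replicated class except the intermediate cells. In macrophages it stood at a median of 1591 CPM over 6 hashtag samples, with a lowest value of 838 and a highest of 2056. Intermediate myeloid cells had a median of 692 CPM (627 to 1356, 7 hashtag samples) and monocytes 85.6 CPM (52.5 to 176, 6 hashtag samples). The range of the intermediate cells overlapped that of macrophages, while the monocyte range lay wholly below both. In microglia the values in hashtag samples 5, 6, 7 and 8 were 4.67, 91.7, 32.5 and 80.9 CPM. These overlapped the monocyte range, and the lowest of them was in the sample with the most microglia. Samples 2, 3 and 4, with only 10, 13 and 12 microglia, had 0, 248 and 0 CPM, so that sample 3 lay above every monocyte value. Conventional CD4 T cells (median 14.5 CPM), NK cells (5.36 CPM), CD8 T cells (5.35 CPM) and endothelial cells (1.87 CPM) had lower medians than microglia.

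Ms4a6c and Ms4a6d were high throughout the monocyte-to-macrophage range. Ms4a6c had medians of 1803 CPM in monocytes (1614 to 2060), 2029 CPM in intermediate cells (1677 to 2256) and 1552 CPM in macrophages (1073 to 1800). The ranges of neighbouring classes in this order overlapped. In microglia Ms4a6c was lower, at 95.8, 368, 175 and 184 CPM in hashtag samples 5, 6, 7 and 8, with no overlap with macrophages. Ms4a6d followed the same order, with medians of 1022 CPM in monocytes, 1177 CPM in intermediate cells, 799 CPM in macrophages and 143 CPM in microglia. Both genes were low in T and NK cells, with medians of 38.9 CPM for Ms4a6c and 50.9 CPM for Ms4a6d in conventional CD4 T cells. Regulatory T cells reached 20 cells only in hashtag sample 5, where they had 47.3 and 64.2 CPM. Ms4a6d also reached a median of 22.0 CPM (14.5 to 44.5, 6 hashtag samples) in endothelial cells, where Ms4a6c stood at 6.77 CPM. The endothelial class also carried the macrophage marker list at a median sum of 525 CPM, and its part in the Ms4a6d value was not tested.

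Ms4a4c was also a myeloid transcript but fell between monocytes and macrophages. Its median was 1449 CPM in monocytes (1161 to 1667), 1620 CPM in intermediate cells (1163 to 1937) and 820 CPM in macrophages (525 to 1077). The macrophage and monocyte ranges did not overlap. A lower level was counted in CD8 T cells (median 124 CPM, 50.8 to 178), conventional CD4 T cells (109 CPM, 106 to 127) and NK cells (77.4 CPM, 36.3 to 92.7). Microglia lay at a median of 62.2 CPM (25.7 to 89.6), overlapping the NK range.

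Ms4a6b was high in both myeloid and T cells. Conventional CD4 T cells had 845, 1168 and 1130 CPM in hashtag samples 5, 7 and 8. CD8 T cells had 634, 815, 658 and 575 CPM in samples 5 to 8, below the CD4 T cells of the same sample in samples 5, 7 and 8. In sample 6, with 12 conventional CD4 T cells, the order was the other way, since these had 413 CPM. Intermediate cells had a median of 878 CPM (725 to 988), monocytes 805 CPM (691 to 877) and macrophages 590 CPM (438 to 812), so that the myeloid and T cell ranges overlapped. NK cells, at 133, 156, 207 and 157 CPM in samples 2, 5, 7 and 8, lay below all of these. Microglia had a median of 107 CPM (94.6 to 178), and their range overlapped that of NK cells. Neutrophils, at 10 or more cells, had 43.0, 18.2, 46.1 and 278 CPM in samples 5 to 8.

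Among the replicated classes, Ms4a4b was highest in conventional CD4 T, CD8 T and NK cells. Of its 19199 UMIs in single-hashtag barcodes, 48.8% lay in gated T and NK cells and 42.4% in ungated barcodes. CD8 T cells had 1833, 2523, 1826 and 1690 CPM in hashtag samples 5 to 8, and conventional CD4 T cells had 1862, 2278 and 1934 CPM in samples 5, 7 and 8. NK cells had 1685, 1864, 1687 and 1810 CPM in samples 2, 5, 7 and 8. These 3 classes overlapped, and every one of their values was far above the myeloid ranges. Intermediate cells had a median of 82.7 CPM (36.1 to 130), monocytes 53.9 CPM (39.3 to 81.8), macrophages 36.8 CPM (11.1 to 73.9) and microglia from 1.17 to 3.44 CPM. The T cell marker list summed to a median of 7.13 CPM in monocytes (1.37 to 16.6) against 7361 CPM in CD8 T cells. It was higher in intermediate cells, at 50.6 CPM (4.88 to 68.7), and in macrophages, at 18.3 CPM (4.21 to 123.5). The NK list summed to 85.1 CPM in monocytes (24.7 to 173), 64.1 CPM in intermediate cells and 62.2 CPM in macrophages, against 4342 CPM in NK cells. Of the 7 NK markers, 6 had UMIs in monocytes, and Ncr1, an NK receptor, was at 0 in every monocyte sum. The 12 B-gated barcodes held no Ms4a4b UMI, which allows up to 88.7 CPM. Whether RNA of lymphocytes contributed to the myeloid Ms4a4b UMIs was not tested.

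**Figure D1:**
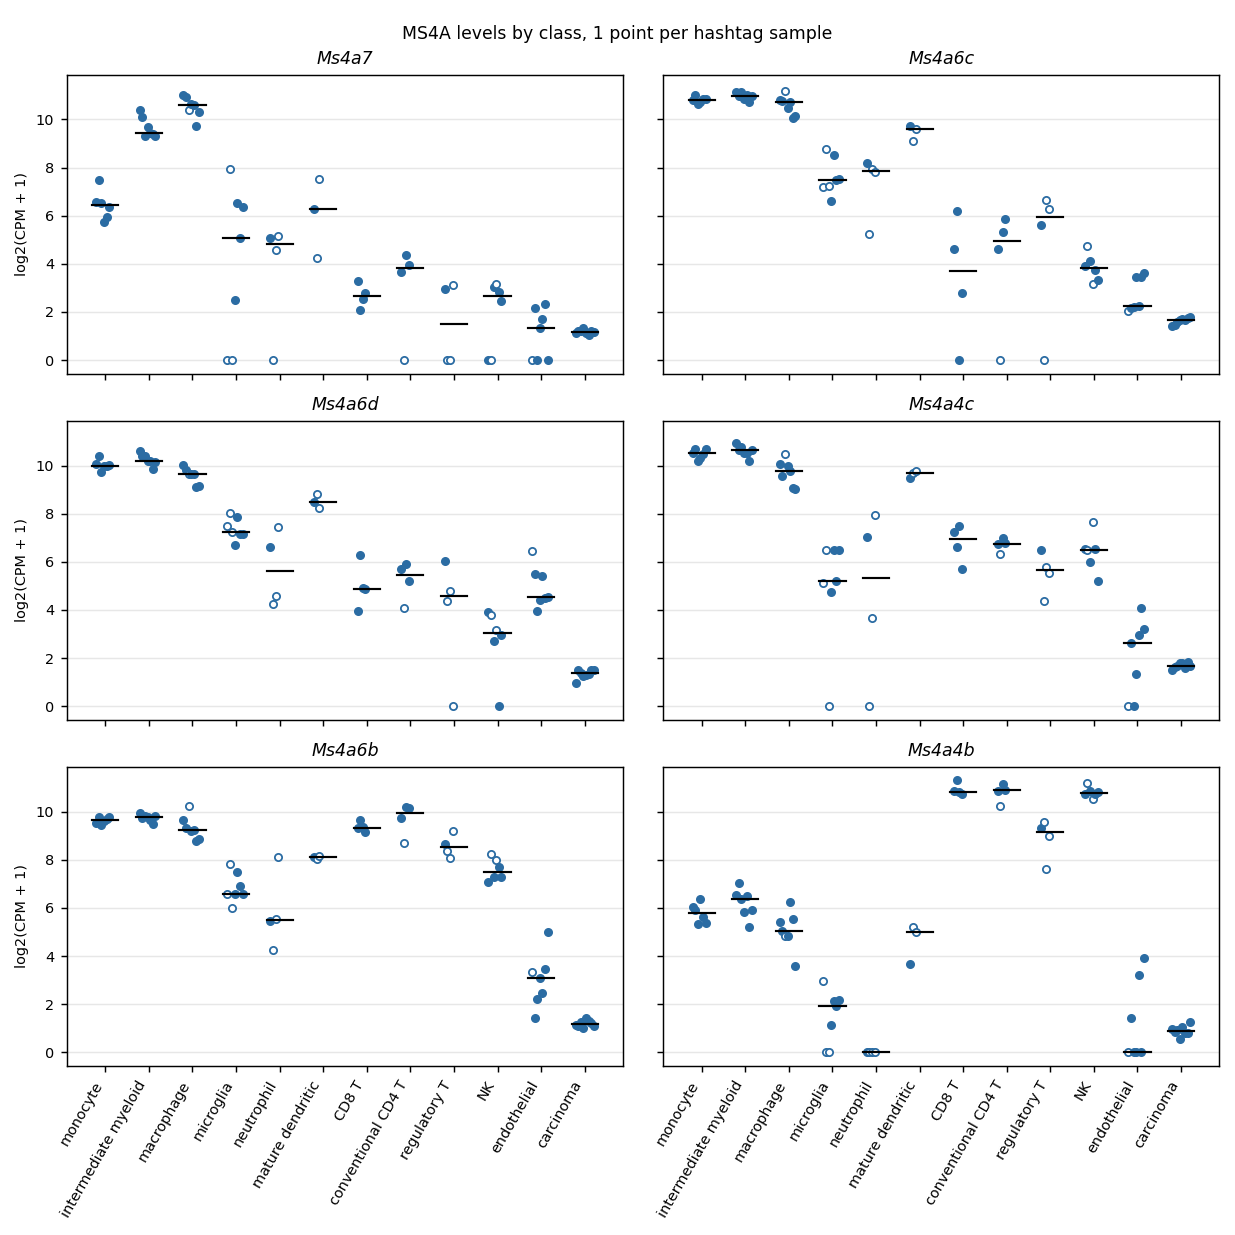
Level of 6 members, log2(CPM + 1), in each cell class, with filled points for hashtag samples of at least 20 cells, open points for those of 10 to 19, and a bar at the median of all points shown. Ms4a7 is highest in macrophages, Ms4a4b in CD8 T, conventional CD4 T and NK cells, and Ms4a6b is high in both myeloid and T cell classes.

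Ms4a1 marked the few B cells. The 12 B-gated barcodes held 18 Ms4a1 UMIs, or 532 CPM (exact Poisson 95% interval 315 to 841, counting error only). In microglia, CD8 T, conventional CD4 T, NK and endothelial cells Ms4a1 had no UMI, and in macrophages its median was 2.00 CPM (0 to 4.21). A count of 0 in the 236 CD8 T cells allows up to 1.66 CPM, taking 3 counts over the class as the floor. Of the 181 Ms4a1 UMIs in single-hashtag barcodes, 76.8% lay in ungated barcodes. A set of 42 barcodes passed the B marker minimum when markers of other classes were not limited, a rule chosen after the values were seen, and these held 119 of the 181 UMIs (65.7%). They also carried monocyte and macrophage markers at medians of 15.9 and 18.8 per 10000 UMIs.

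The smaller classes were pooled over hashtag samples and have no replicate check. The 22 border-associated macrophages, gated on genes such as Mrc1, Lyve1 and Folr2, carried Ms4a7 at 1634 CPM (exact Poisson 95% interval 1532 to 1740, counting error only), Ms4a6c at 1223 CPM and Ms4a6d at 1091 CPM. Their median depth was 25372 UMIs, and 18.5% of all barcodes passing this gate were hashtag doublets. The 29 conventional dendritic cells had a single Ms4a7 UMI (2.47 CPM) but Ms4a6c at 493 CPM (427 to 566) and Ms4a4c at 370 CPM. The 64 mature dendritic cells, gated on Ccr7 and Fscn1, had Ms4a4c at 796 CPM, Ms4a6c at 728 CPM and Ms4a7 at 94.2 CPM. Gamma-delta T cells (24 barcodes) carried Ms4a4b at 987 CPM and Ms4a6b at 413 CPM. In the 74 neutrophils Ms4a6c stood at 202 CPM, Ms4a7 at 22.5 CPM and Ms4a4b at 0, which allows up to 9.62 CPM.

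To set aside depth, each cell was thinned to 2000 UMIs and the share of cells with at least 1 UMI was counted. Intervals cover counting error only. Pooled over hashtag samples, Ms4a7 was seen in 78.3% of macrophages (220 of 281) and 8.17% of monocytes (exact binomial 95% interval 5.98% to 10.9%), against 3.56% of microglia (13 of 365) and 0.268% of carcinoma-gated barcodes (12 of 4470). None of 343 endothelial cells had a Ms4a7 UMI after thinning, with an exact binomial 95% upper bound of 1.07%. The unthinned medians over hashtag samples were 91.2%, 19.1%, 5.61% and 10.5% in that order, the last from barcodes of far greater depth. Ms4a4b was seen in 95.5% of NK cells and 92.3% of CD8 T cells, against 7.79% of monocytes and 0.274% of microglia. Ms4a6b was seen in 70.9% of CD8 T cells, 71.1% of monocytes and 23.5% of NK cells. The share for Ms4a7 was 72.7 percentage points higher in macrophages than in monocytes (higher in 6 of 6 hashtag samples), with a two-sided exact sign-flip permutation p of 0.03125, the smallest that 6 samples allow. Over the 49 relations of members and class pairs the smallest adjusted p of this exact permutation test was 0.278, so none passed. With 4 hashtag samples the exact test cannot go below 0.125 and with 3 it cannot go below 0.25.

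**Figure D2:**
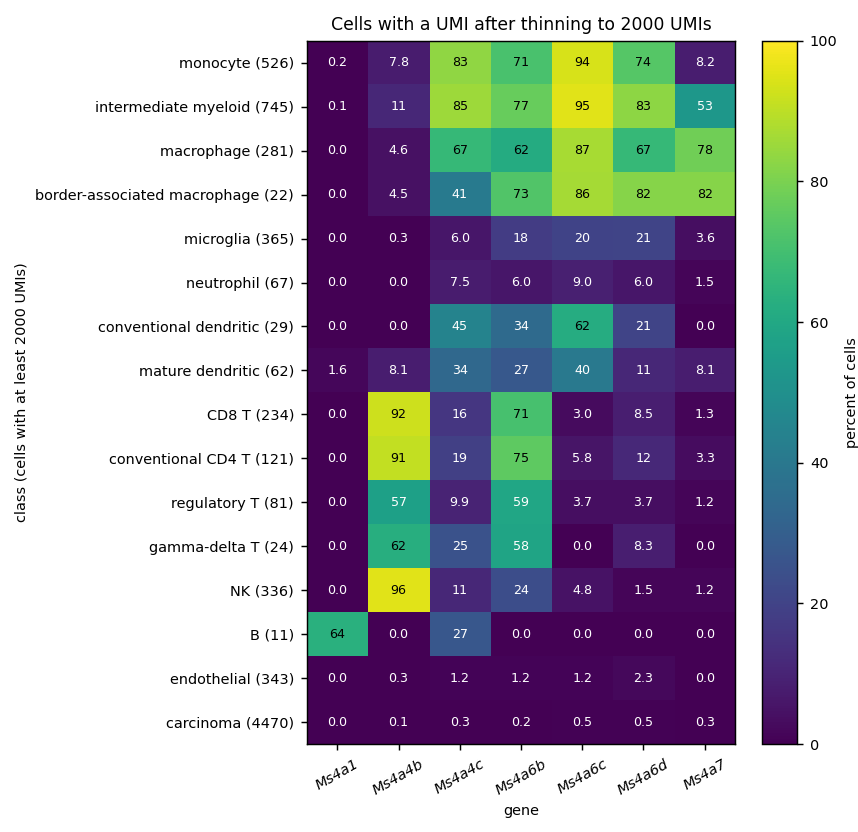
Percent of cells with at least 1 UMI of each member (columns) after thinning to 2000 UMIs, pooled over hashtag samples per class (rows, with the number of cells), on a colour scale from 0 to 100. Ms4a7 is seen in 78.3% of macrophages and 3.56% of microglia, and Ms4a4b in 95.5% of NK cells and 0.274% of microglia.

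Members were carried together in myeloid cells. After thinning, at least 4 of the 7 members were seen in 52.7% of monocytes, 73.7% of intermediate cells and 60.1% of macrophages, and the median cell of each had 4. The median was 2 in CD8 and conventional CD4 T cells, and 1 in NK cells. None was seen in 52.9% of microglia, 93.9% of endothelial cells and 98.3% of carcinoma-gated barcodes. Ms4a6c and Ms4a6d were both seen in a median of 70.8% of monocytes over 6 hashtag samples, beside 69.0% from the product of their separate shares. For Ms4a6c with Ms4a7 in macrophages these values were 71.6% and 67.9%. Within these classes, joint detection was thus close to the product of the separate shares.

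Microglia and macrophages were compared within the 4 hashtag samples that held at least 20 cells of each. In an edgeR quasi-likelihood fit with the hashtag sample as a block, all 5 members tested were higher in macrophages. Over all 7117 genes tested, 21.9% were higher and 22.9% lower at an adjusted p of at most 0.05. Ms4a7 differed most, by a log2 fold change of 4.92 ± 0.40 (SE; edgeR adjusted p = 1.7e-07), or 30.3-fold. Ms4a4c was 13.8-fold higher (log2 3.79 ± 0.30), Ms4a6c 7.47-fold, Ms4a6d 4.85-fold (log2 2.28 ± 0.19) and Ms4a6b 4.70-fold (log2 2.23 ± 0.17). For each of the 5 genes every macrophage value lay above every microglia value. Ms4a1 and Ms4a4b had too few UMIs to be tested. Of the other family genes, Tmem176a (-1.65) and Tmem176b (-1.58) were the ones tested, and both were lower in macrophages. Trem2, whose protein is a lipid receptor of microglia and macrophages, was lower as well (-1.52 ± 0.16). Among 5 tested genes of reported protein partners of the family, 2 were higher (Cd40 and Fcer1g), 1 was lower and 2 were not called. The microglia gate itself uses neither these genes nor the members, and microglia carried the monocyte list at a median sum of 182 CPM against 922 CPM in macrophages.

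Monocytes were set against microglia in the same 4 hashtag samples, a comparison added after the levels had been seen. Of 6 members tested, 5 were higher in monocytes, beside 28.8% of 6944 genes higher and 31.4% lower. Ms4a4c differed by 4.91 ± 0.24 and Ms4a4b by 4.58 ± 0.33 on the log2 scale, followed by Ms4a6c (3.51), Ms4a6b (3.03) and Ms4a6d (2.99). Ms4a7 was the exception, at 0.92 ± 0.41 (edgeR adjusted p = 0.063), with values of monocytes and microglia overlapping. It was called higher in 6 of 14 alternatives, over which its log2 fold change ran from 0.13 to 2.56. These were no filter on low counts (edgeR adjusted p = 3.1e-06), another hashtag rule (4.4e-05), stricter gates (0.0027), Scrublet doublets left out (0.044), and hashtag sample 6 (0.011) or 8 (0.032) left out. Ms4a8a was higher too, with medians of 56.7 CPM in monocytes and 0 in microglia, and Tmem176a and Tmem176b were lower. This comparison shares its microglia with the preceding one.

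Macrophages and monocytes were compared in 6 hashtag samples. All 6 members tested were called, beside 19.4% of 6024 genes higher and 22.2% lower in macrophages: Ms4a7 was higher and the other 5 were lower. Ms4a7 rose by 3.95 ± 0.15 on the log2 scale (edgeR adjusted p = 2.1e-10), or 15.4-fold, and was higher in 6 of 6 samples without overlap. The fall was largest for Ms4a4c (-1.03 ± 0.17, edgeR adjusted p = 0.00020) and was smaller for Ms4a4b (-0.79 ± 0.20), Ms4a6b (-0.60 ± 0.13), Ms4a6d (-0.59 ± 0.12) and Ms4a6c (-0.45 ± 0.11). Among these, only the values of Ms4a4c did not overlap between the classes. Some calls rested on the gates or the design. Ms4a6c was not called with stricter marker gates (edgeR adjusted p = 0.12), with antibody tag gates (0.054), without barcodes over 30000 UMIs (0.13) or after thinning (0.55), and Ms4a4b was not called without the block (0.11). After thinning Ms4a6b was not called either (edgeR adjusted p = 0.070), and with intermediate cells added to macrophages 2 members were called. Ms4a8a (-2.05) and Ms4a4a (-1.11) were also lower, while Tmem176a and Tmem176b were not called. Trem2 was higher by 3.27 ± 0.16, which follows the direction of Ms4a7, and Tyrobp, which encodes the signalling adaptor of TREM2, was lower (-0.58 ± 0.08).

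**Figure D3:**
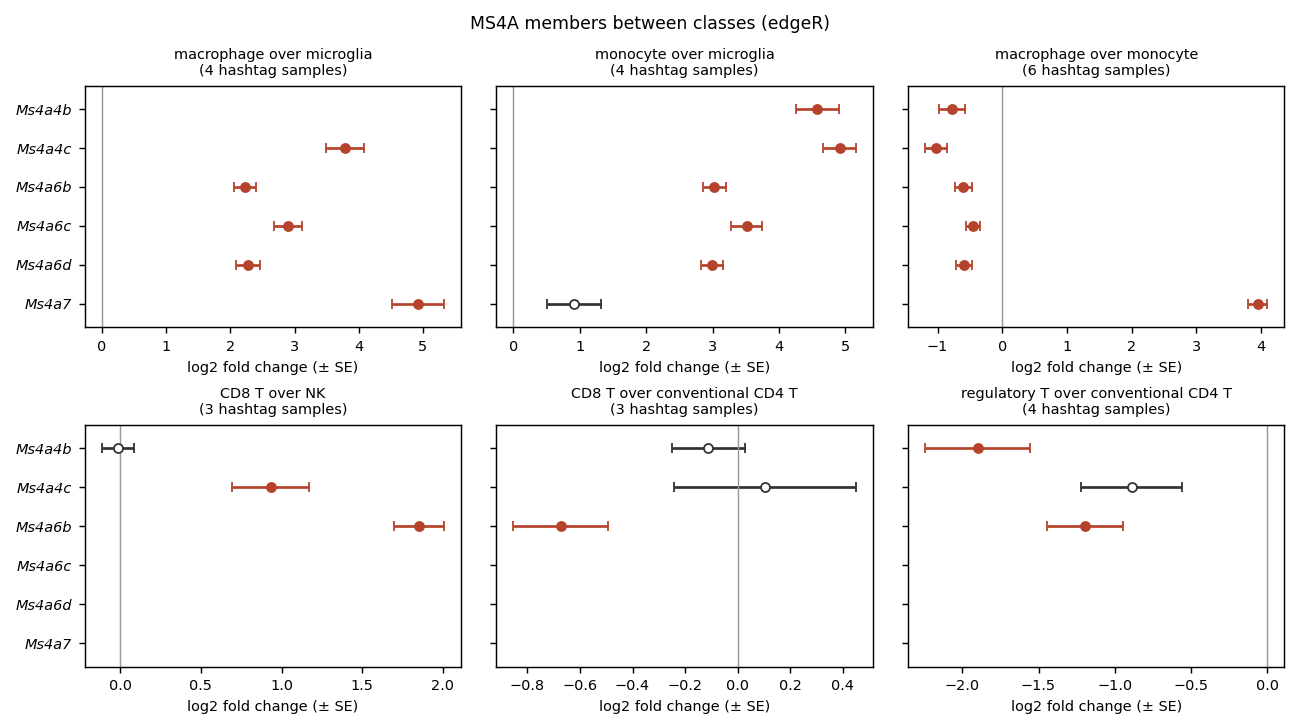
Log2 fold change of each member in the class pairs tested except monocytes over neutrophils, from the edgeR fit. Bars are 1 SE, with filled points for called members and open points for members not called. Ms4a7 is 4.92 higher in macrophages than in microglia and 3.95 higher than in monocytes, while the other 5 members tested are lower in macrophages than in monocytes.

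Neutrophils reached only 10 cells in 4 hashtag samples, and that lower minimum was used for their comparison with monocytes. Of 6 members tested 5 were higher in monocytes, beside 13.9% of 3305 genes higher and 16.1% lower. Ms4a4c was higher by 3.63 ± 0.47 on the log2 scale, Ms4a6d by 3.32 ± 0.40, Ms4a6b by 2.89 ± 0.43 and Ms4a6c by 2.75 ± 0.32. Ms4a4b was called higher, with 199 UMIs in monocytes and 0 in neutrophils, which makes it at least 4.46-fold higher when 3 counts are taken as the floor over the neutrophil group. With antibody tag gates Ms4a4b was not called (0.91, edgeR adjusted p = 0.29). Ms4a7 was not called (1.23 ± 0.54, edgeR adjusted p = 0.10). It was called higher in 2 of 12 alternatives, over which its log2 fold change ran from -1.06 to 1.73. The neutrophil marker list summed to a median of 101 CPM in monocytes (53.1 to 222). Of its 7 genes, 6 had UMIs there, and Ly6g, a neutrophil antigen, was at 0. Neutrophils carried monocyte markers at a median of 30.1 per 10000 UMIs beside 666 for their own list.

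Among lymphocytes, CD8 T and NK cells were compared in 3 hashtag samples. Ms4a6b was higher in CD8 T cells by 1.85 ± 0.16 on the log2 scale (edgeR adjusted p = 5.6e-08), or 3.61-fold, without overlap. Ms4a4c was higher by 0.93 ± 0.24 (edgeR adjusted p = 0.0097), and Ms4a4b was not called (-0.02 ± 0.10, edgeR adjusted p = 0.94). These are 2 of 3 members tested, beside 8.11% of 4708 genes higher and 9.32% lower. The Ms4a4c call was lost without hashtag sample 5 (edgeR adjusted p = 0.13) or 7 (0.097), with DESeq2 (0.30), without the block (0.18), with antibody tag gates (0.51) and with a minimum of 10 cells (0.38). Tyrobp and Fcer1g, signalling adaptors of NK receptors, were lower in CD8 T cells (log2 fold changes -7.39 and -5.39), and Tnfrsf18 was not called.

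CD8 and conventional CD4 T cells were compared in the same 3 hashtag samples and share the CD8 T cells with the preceding comparison. Ms4a6b was lower in CD8 T cells by 0.67 on the log2 scale (log2 fold change -0.67 ± 0.18, edgeR adjusted p = 0.037), the single call among 3 members, beside 2.78% of 3276 genes higher and 3.82% lower. Ms4a4b (-0.11 ± 0.14) and Ms4a4c (0.10 ± 0.35) were not called. The Ms4a6b call was lost without hashtag sample 7 (edgeR adjusted p = 0.30) or 8 (0.18), with DESeq2 (0.098), without barcodes over 30000 UMIs (0.099), after thinning (0.084) and with a minimum of 10 cells (0.70), and with antibody tag gates the value turned to 0.15.

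Regulatory T cells, gated on Foxp3 and genes such as Il2ra and Ctla4, were compared with conventional CD4 T cells at a minimum of 10 cells in 4 hashtag samples. Ms4a4b stood at 635, 753, 194 and 514 CPM in regulatory T cells of samples 5 to 8, against 1862, 1192, 2278 and 1934 CPM in conventional CD4 T cells. Every regulatory value was below every conventional value. The log2 fold change was -1.90 ± 0.35 (edgeR adjusted p = 0.0086). Ms4a6b stood at 399, 333, 268 and 583 CPM against 845, 413, 1168 and 1130 CPM, lower in each sample although the ranges overlapped, with a log2 fold change of -1.19 ± 0.25 (edgeR adjusted p = 0.016). Thus 2 of 3 members tested were lower, beside 3.8% of 2025 genes higher and 5.88% lower, and Ms4a4c was not called (-0.89 ± 0.33, edgeR adjusted p = 0.13). Both calls were lost without hashtag sample 8 (edgeR adjusted p = 0.083 for Ms4a4b and 0.097 for Ms4a6b), and that of Ms4a6b without sample 5 (0.066). Tnfrsf18, which encodes GITR, was higher in regulatory T cells by 0.98 ± 0.17. Tyrobp and Fcer1g, genes of myeloid and NK cells that were not tested here, ran from 9.78 to 334 and from 9.78 to 291 CPM in regulatory T cells, against 0 to 47.7 and 0 to 43.0 CPM in conventional CD4 T cells. The conventional dendritic list, which holds Itgae, a gene that T cells also express, summed to 166 CPM in the regulatory T cells of hashtag sample 5 against a median of 7.24 CPM in conventional CD4 T cells. The part of these transcripts in the member differences was not tested. After thinning, Ms4a4b was seen in 35.4 percentage points fewer regulatory than conventional CD4 T cells on average (-35.4 points, 4 of 4 samples), with an exact permutation p of 0.125, the smallest that 4 samples allow.

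Across 53 sums of 13 classes and hashtag samples, the likeness of patterns was described by Pearson's r of log2(CPM + 10). These sums share 1 capture, and sums of a class share its cell type, so r is given as a description. Ms4a6c and Ms4a6d were most alike (r = 0.97), followed by Ms4a4c with Ms4a6c (0.93) and with Ms4a6d (0.91). Ms4a7 reached 0.89 with Ms4a6c. Ms4a6b lay between the groups, at 0.87 with Ms4a4c and 0.62 with Ms4a4b. Ms4a4b was at -0.08, -0.07 and -0.09 with Ms4a6c, Ms4a6d and Ms4a7, and at 0.24 with its paralog Ms4a4c.

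**Figure D4:**
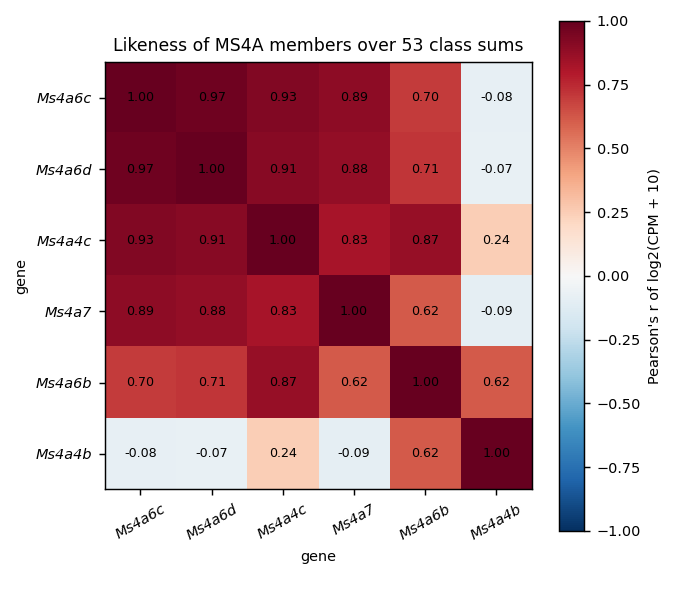
Pearson's r of log2(CPM + 10) between members over 53 class sums, on a colour scale from -1 to 1. Ms4a6c and Ms4a6d are at 0.97, and Ms4a4b is near 0 with Ms4a6c, Ms4a6d and Ms4a7.

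Among 5989 genes ranked, with gate markers left out, the pattern most like Ms4a7 was that of Rab7b (r = 0.95), which encodes a small GTPase of the endosome and lysosome, then Clec12a (0.93) and Clec4a1 (0.92), which encode C-type lectin receptors of myeloid cells. Ms4a6c was most like Lyz2 (0.98), the lysozyme gene of myeloid cells, Lst1 (0.98) and Clec4a3 (0.97). Ms4a6d was most like Cybb (0.96), a subunit of the phagocyte NADPH oxidase, Clec4a3 (0.96) and Gm2a (0.96). Ms4a4c was most like Actr3 (0.96) and Arpc2 (0.96), both of the actin-branching Arp2/3 complex, and Lilr4b (0.95). Ms4a6b was most like the pan-leukocyte gene Cd48 (0.97), Lpxn (0.96) and Phf11b (0.94). Ms4a4b was most like Ptpn22 (0.98), a phosphatase of lymphocyte receptor signalling, Ptprcap (0.95) and Spn (0.94), which encodes CD43. Ms4a1 itself was below the filter, with a mean of 0.30 CPM, so the likeness values computed for it are not given.

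The antibody tags gave a view within classes that the gates had not used. Cells of each class and hashtag sample were split at the median of a tag, an alternative chosen after the data were seen, and 59 relations were computed. Monocytes above the median of CD11c, an integrin of macrophages and dendritic cells, held most of the class's Ms4a7 UMIs: 173, 297, 148, 106, 109 and 125 CPM in hashtag samples 2, 3, 5, 6, 7 and 8. The cells below the median held 16.5, 13.2, 27.2, 0, 2.94 and 28.1 CPM in the same samples. The groups did not overlap, with 447 UMIs above the median and 50 below it. The mean difference was 3.96 on the log2(CPM + 1) scale (2.12 to 6.74, higher in 6 of 6), with an exact permutation p of 0.03125 and an adjusted p of 0.123, the smallest adjusted p of the 59 relations, so none passed. The macrophage marker list was at 27.0 per 10000 UMIs above and 29.7 below the CD11c median (higher in 1 of 6), and the conventional dendritic list at 1.92 and 0.72 (6 of 6). The NK list was at 1.25 above and 0.361 below (6 of 6), and the monocyte list was lower above the median in 6 of 6. The part of these markers in the Ms4a7 difference was not tested. The depth of the cells above was 1.04 times that of the cells below. The I-A-I-E tag, of MHC class II, split the same monocytes in a similar way, with 402 Ms4a7 UMIs above and 95 below its median (mean difference 1.91, higher in 5 of 6, exact permutation p = 0.0625, adjusted p = 0.176).

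In intermediate cells Ms4a7 was higher above the CD11c median by a mean of 0.75 (7 of 7 samples, exact permutation p = 0.015625, adjusted p = 0.123), where the macrophage list was also higher (148 against 115 per 10000 UMIs, 7 of 7). The monocyte list was at 51.5 above and 103 below that median (0 of 7 higher). The depth of the intermediate cells above was 1.43 times that of those below. Ms4a4b (-0.96), Ms4a4c (-0.41) and Ms4a6d (-0.39) were lower above the CD11c median in 7 of 7 samples, each with the same exact permutation p and adjusted p as Ms4a7. Ms4a7 was lower above the median of Ly6C, an antigen of classical monocytes, by a mean of -0.68 (lower in 7 of 7). The monocyte list was at 103 above and 48.5 below the Ly6C median (7 of 7 higher), with a depth ratio of 0.83. The part of depth and of these markers in the member differences of intermediate cells was not tested. In macrophages the CD11c difference was 0.23 (higher in 3 of 6, exact permutation p = 0.3125). For the other members except Ms4a1, the mean CD11c differences in monocytes ran from -0.21 (Ms4a4b) to 0.15 (Ms4a6c). That of Ms4a6c, though small, was higher in 6 of 6 samples (exact permutation p = 0.03125, adjusted p = 0.123). Other monocyte splits with these same p-values were Ms4a4c by I-A-I-E (0.31, higher in 6 of 6) and, by Ly6C, Ms4a4c (-0.23) and Ms4a6b (-0.25), both lower in 6 of 6. Ms4a4b was higher in monocytes above the Ly6C median, by a mean of 1.06 (higher in 6 of 6), where the NK list was lower than below the median in 6 of 6 and the T list was higher in 5 of 6 (0.080 against 0.048 per 10000 UMIs). The part of lymphocyte RNA in it was not tested. In T and NK cells, Ms4a4b did not follow PD-1 on CD8 T cells or CD11b on NK cells in one direction, with 2 of 4 samples higher for each tag.

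**Figure D5:**
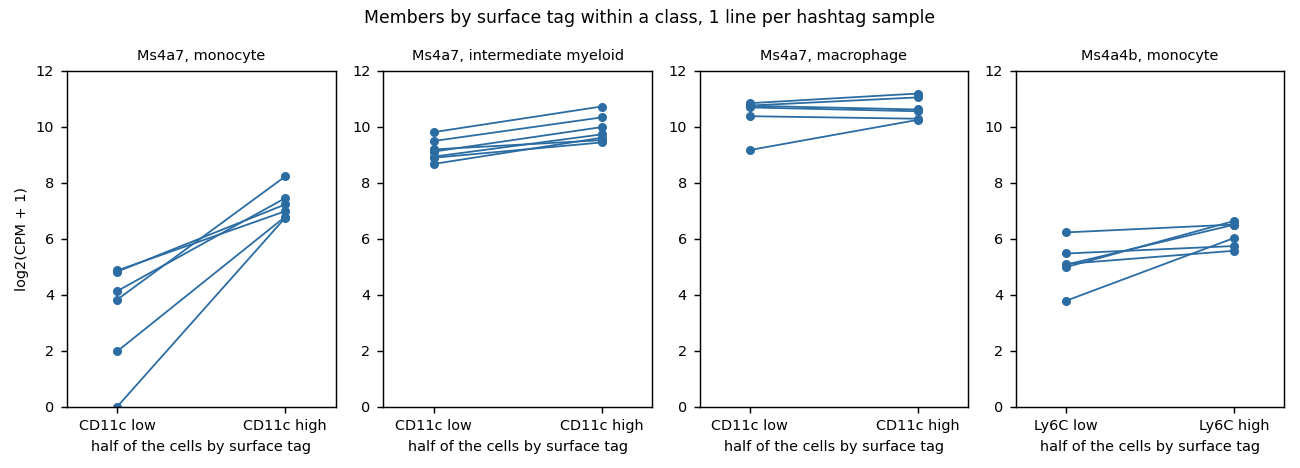
Ms4a7 level, log2(CPM + 1), in cells below and above the hashtag sample's median of the CD11c tag in monocytes, intermediate cells and macrophages, and Ms4a4b by the Ly6C tag in monocytes, with a line per hashtag sample. All 6 monocyte lines of Ms4a7 rise, from at most 28.1 CPM to at least 106 CPM, and 3 of 6 macrophage lines rise.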

How the data were processed

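Per the file headers and values, the authors deposited raw counts: UMIs per gene, antibody tag and hashtag for each barcode, in 1 matrix. Cell Ranger 3.1, Seurat 3.1.1 and the build mm10 are named in the submitters' processing notes. Kept barcodes had 500 or more genes detected, with mitochondrial UMIs no higher than 15%. Hashtags were called with HTODemux (Seurat 5.3.0, quantile 0.99). Barcodes with several hashtags were left out as doublets; Scrublet (scanpy 1.11.5) marked 1.29% of the single-hashtag barcodes and 25.2% of the hashtag doublets, and its calls were used only in an alternative. Doublets within a hashtag sample remain: among barcodes passing the intermediate myeloid gate, 19.1% were hashtag doublets, against 8.30% for monocytes and 11.4% for macrophages. Classes were gated on marker UMIs per 10000. Counts were summed per class and hashtag sample, and pairs of classes were tested with edgeR 4.0.16 (R 4.3.3), TMM scaling and the hashtag sample as a block, over all genes passing the filter, with Benjamini-Hochberg adjustment at 0.05. The block pairs classes of the same hashtag sample, which share a tissue preparation. Correlations of paired deviations ran from -0.12 to 0.42 over the comparisons. The median log2 fold change of all genes ran from -0.07 to 0.08. Depth limits low levels, as the floors beside them give.

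The members, gates and gene lists were chosen with earlier results of these data known. The text names the members, the other Ms4a genes with Tmem176a and Tmem176b, and genes of reported protein partners. For each member except Ms4a1 it also names the 3 genes of highest likeness among those with a mean of at least 20 CPM. Alternatives were DESeq2 1.42.0, RLE size factors, no filter, Scrublet doublets or barcodes over 30000 UMIs left out, a hashtag rule by margin, no block, stricter gates, antibody tag gates, other minimums of cells, thinning and each hashtag sample left out. Macrophages against conventional dendritic cells, border-associated against other macrophages, and mature against conventional dendritic cells had no hashtag sample with enough cells and were not tested. Promoter windows are from RefSeq (GRCm38.p6).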

Additional observations from a re-analysis of the deposited data

Results flagged for a closer look

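Of 52 groups of 4 to 10 hashtag samples, 5 held a sample far from the others by Dixon's test at 95%, which chance alone flags in about 1 of 20 groups. Ms4a4b in CD8 T cells of hashtag sample 6 stood at 2523 CPM (796 UMIs), against 1690 to 1833 CPM in the other 3 samples. Ms4a7 in monocytes of hashtag sample 3 stood at 176 CPM (94 UMIs), against 52.5 to 94.9 CPM in the others. Ms4a6b in endothelial cells of hashtag sample 8 stood at 30.6 CPM, from 11 UMIs in 26 cells, against 1.71 to 9.89 CPM. Ms4a1 in intermediate myeloid cells of hashtag sample 3 stood at 3.41 CPM from 6 UMIs, against at most 0.923 CPM. Ms4a1 in monocytes of hashtag sample 8 stood at 0.508 CPM from 1 UMI, against 0 in the others. With all others at 0, any UMI would be flagged, so the rate of 1 in 20 does not hold for that group.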

How the results depend on the processing

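Of 470 member fold changes under alternatives, 424 kept direction and side of the threshold, 25 were no longer called, 8 became called and 13 changed sign. Counts of members called moved by more than 1.5 times in 16 of 103 cases. For macrophages over monocytes (6 called) they were 3 after thinning and 2 with intermediate cells added, where Ms4a4b turned to 0.11. For CD8 T over NK cells (2 called) 1 was called with DESeq2, with no replicate block, with antibody tag gates and with a minimum of 10 cells, and 1 to 2 with a hashtag sample left out. There the Ms4a4b log2 fold change was 0.33 with tag gates, 0.037 without barcodes over 30000 UMIs, 0.11 after thinning, 0.20 with 10 cells, and -0.078 to 0.052 with a sample left out. For CD8 over conventional CD4 T cells (1 called) 0 were called with DESeq2, tag gates, without barcodes over 30000 UMIs, after thinning and with 10 cells, and 0 to 1 with a sample left out. Ms4a4b there was 0.38 with tag gates and 0.19 with 10 cells, Ms4a6b was 0.15 with tag gates, and Ms4a4c was -0.11 after thinning and -0.22 to 0.61 with a sample left out. For regulatory over conventional CD4 T cells (2 called) 0 to 2 were called with a sample left out. Ms4a7 in monocytes over neutrophils was -1.06 with tag gates. The causes of these changes were not tested, except that thinning and leaving out samples reduce the counts. Without the replicate block, 5 members were called between macrophages and monocytes, and the block changed no other call beyond those given.

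Counts of all genes called moved by more than 1.5 times in these cases: macrophages over microglia, 3194 against 1062 after thinning; macrophages over monocytes, 2508 against 589 after thinning; monocytes over microglia, 4183 against 1633 after thinning. For monocytes over neutrophils it was 991 against 485 with tag gates and 499 after thinning. For CD8 T over NK cells it was 821 against 306 with DESeq2, 509 with tag gates, 271 after thinning, 486 with 10 cells and 406 to 730 with a sample left out. For CD8 over conventional CD4 T cells it was 216 against 77 with DESeq2, 345 with no filter, 113 without barcodes over 30000 UMIs, 97 after thinning, 98 with 10 cells and 81 to 343 with a sample left out. For regulatory T cells it was 196 against 90 with DESeq2, 363 with no filter, 89 with stricter gates, 417 with tag gates, 129 without barcodes over 30000 UMIs, 44 after thinning and 44 to 246 with a sample left out. Stricter gates gave no value for CD8 over conventional CD4 T cells. Levels kept within 1 SD in 59 of 63 cases and shares in 68 of 98.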

Other observations

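Ms4a2, the IgE receptor beta chain gene, had 15 UMIs among all single-hashtag barcodes, in 3 barcodes with 11, 3 and 1 UMIs, which also held 265, 164 and 25 UMIs of mast cell and basophil markers such as Cpa3 and Mcpt8. Ms4a3, a gene known from granulocyte precursors, had 9 UMIs, of which 7 were in 5 of the 74 neutrophils. Ms4a8a stood at a median of 56.7 CPM in monocytes, 52.1 CPM in intermediate cells and 13.3 CPM in macrophages. Ms4a14 had the opposite order of medians, at 0.437, 9.24 and 16.9 CPM, and was at 22.1 CPM in pooled border-associated macrophages. Ms4a10, Ms4a18, Ms4a13, Ms4a12 and Ms4a5 had 0 UMIs.

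Tmem176a and Tmem176b encode related membrane proteins. Their order between microglia, monocytes and macrophages differed from that of the myeloid members. Both were higher in monocytes than in neutrophils, the direction of 5 members there. Their log2 fold changes were 4.09 ± 0.86 and 3.77 ± 0.69 (edgeR adjusted p = 0.0020 and 0.00066). Pooled mature dendritic cells held Tmem176a and Tmem176b at 921 and 735 CPM and gamma-delta T cells at 510 and 591 CPM. Microglia had medians of 228 and 337 CPM, against 68.1 and 99.6 CPM in monocytes and 72.5 and 110 CPM in macrophages.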
